A study of Mus musculus with 16 samples.

Results

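Peptide response of BDC2.5 thymocytes on the NOD background was read from 6 of the 16 arrays of a study of negative selection, 3 of BDC2.5/NOD cultures with peptide added for 16 h and 3 of BDC2.5/NOD cultures with none. The arrays were chosen by their titles, and each holds total RNA of thymocytes carrying both CD4 and CD8 (double-positive cells). The cells came from fetal thymic organ culture, a method that lets lobes of a fetal thymus go on developing in a dish. All 6 carry the BDC2.5 transgenes, which encode the T cell receptor (TCR) of a CD4 T cell clone that causes diabetes, on NOD, a strain with spontaneous autoimmune diabetes. Set beside them were 2 arrays of wild-type NOD thymocytes from the same kind of culture, whose peptide state the labels do not give, and 3 arrays with and 3 without peptide of BDC2.5 thymocytes on B6g7, a C57BL/6 strain with the NOD MHC haplotype. Which peptide was given, and at what dose, is not in the labels, and they do not say whether replicates came from separate animals, so p-values measure the spread between these arrays, which may be technical.

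A developing thymocyte whose receptor binds self-peptide strongly is removed or diverted, which is called negative selection. The TCR signal switches on immediate-early transcription factors, among them the NR4A orphan nuclear receptors and the EGR zinc finger factors, and later the death gene Bcl2l11 (Bim), while the double-positive program of receptor gene rearrangement and cell division is shut down. In BDC2.5 thymocytes the transgenic receptor is the usual means to give many cells the same specificity at once.

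The labelled cell type was checked against its markers. By mean log2 intensity over all 16 arrays, all 11 measured markers of the double-positive T lineage lay above the median of all probe sets. On the 6 BDC2.5/NOD arrays Cd8a lay between 2034 and 4093 and Cd3g between 1604 and 2191 intensity units, against array medians of 54.7 to 59.1. Of markers of other cells, 10 of 26 myeloid and dendritic and 4 of 13 thymic epithelial genes lay above the median by the same mean over 16 arrays. So did 8 of 13 B cell and 10 of 23 mesenchymal and endothelial genes. The summed myeloid and dendritic signal was 1340 to 1725 without peptide and 1366 to 1657 with it, and the summed epithelial signal was 506 to 547 and 515 to 523. Summed B cell signal was 1621 to 2583 without and 1410 to 2322 with peptide, erythroid signal 958 to 1263 and 980 to 1135, NK cell signal 724 to 852 and 803 to 968, and mesenchymal and endothelial signal 1444 to 1906 and 1422 to 1752. The ranges of the groups overlapped for each of these lists. In same-numbered pairs, however, the B cell sum went from 2583, 2549 and 1621 to 1861, 2322 and 1410, lower each time. The NK cell sum went from 852, 724 and 803 to 883, 803 and 968, higher each time. The other lists of this kind had pairs in both directions. The part of such cells in the differences below was not tested. The T lineage sum itself was 13110 to 16700 without peptide and 11320 to 12930 with it, with no overlap.

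Measures of array quality bear on what follows. Arrays numbered 3 stood apart from those numbered 1 and 2: the SD of log2 differences over probe sets was 0.35 between arrays 1 and 2 without peptide, but 0.62 and 0.51 between array 3 and these. With peptide the same SDs were 0.22, 0.39 and 0.44. For beta-actin, the log2 distance between the probe sets at the 3' and 5' ends, a measure of RNA integrity, was 3.27, 2.33 and 1.86 without peptide and 2.67, 2.77 and 1.43 with it (difference -0.20, exact permutation p = 0.8, two-sided, n = 3 per group, smallest possible p = 0.1). Xist, the RNA of the inactive X chromosome, read 391, 883 and 1815 without peptide and 18.3, 1439 and 911 with it, so same-numbered arrays were not matched in this gene, which was chosen after its values were seen. The Y-linked Eif2s3y read 69.7, 84.0 and 23.4 without and 202, 25.4 and 167 with peptide.

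Tested over 12422 probe sets, limma called 0 (0%) between BDC2.5/NOD arrays with and without peptide at an adjusted p under 0.05, and 0 (0%) with same-numbered arrays as pairs. The count at an unadjusted p under 0.05 was 207, and 812 with pairs. The smallest adjusted p was 0.641. What follows therefore gives values, array by array, of genes that did not pass, each at an adjusted p of 1 unless another value is printed. In B6g7 limma called 1 probe set (0.00805%), and for the difference between the strains' responses 0 (0%), with 147 at an unadjusted p under 0.05.

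Among genes at or above an intensity of 57.4 in either group whose 3 peptide arrays were all higher, Itm2a, Egr2 and Nr4a1 differed most. Next came Ifit1, an interferon-stimulated gene, and Retreg1. As lists, genes of DNA replication, mitosis and the double-positive state were mostly lower. Itm2a, a membrane protein gene switched on in thymocyte selection, was 3.17-fold higher, Egr2 3.04-fold and Nr4a1 3.02-fold. With 1 probe set for each of 8251 genes, the 3 peptide arrays all lay above the 3 arrays without peptide for 187 genes (2.27%) and all below for 268 (3.25%). Of the 20 ways to split these arrays 3 against 3, 1 separates a gene in a given direction. Both shares were below 1 in 20, so lack of overlap in a gene is by itself no sign of a response. In same-numbered pairs, 889 genes (10.8%) were higher in 3 of 3 and 1483 (18.0%) lower in 3 of 3. The mean was higher with peptide for 42.4% of all genes, with a median log2 difference of -0.02, and for 49.0% in B6g7.

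Itm2a read 298, 265 and 286 on the arrays without peptide numbered 1, 2 and 3, and 833, 660.2 and 1312 on those with peptide. The lowest peptide array was above the highest array without peptide, and array 3 was the highest. The log2 difference was 1.67 ± 0.31 (standard error, adjusted p = 0.641, 0.501 with pairs). Wild-type NOD arrays read 288 and 502, and the difference was 1.82 in B6g7. Leaving out the arrays numbered 3 gave 1.40.

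All 6 measured genes of the NR4A, EGR and NAB factors had a higher mean with peptide, against 42.4% of all genes. Of these, 4 were higher in 3 of 3 pairs and 3 without overlap of the groups, against 10.8% and 2.27%. Nr4a1, which encodes the orphan receptor Nur77 and is switched on by the TCR, read 174, 279 and 124 without peptide and 495, 398 and 847 with it. Its groups did not overlap, array 3 was at once the lowest without and the highest with peptide, and the log2 difference was 1.60 ± 0.35 (unadjusted p = 0.000492). Without the arrays numbered 3 it was 1.01. Egr2, a zinc finger factor induced by the same signal, read 145, 188 and 229 without peptide and 489.5, 267 and 1345 with it. Its groups did not overlap either, but the peptide array numbered 2 lay near the highest array without peptide (1.60 ± 0.49, 1.13 without the arrays numbered 3).

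Nab2, a corepressor that binds EGR proteins, was a dim gene with even values, at 37.5, 52.9 and 36.7 without peptide and 70.5, 71.1 and 65.5 with it. Its log2 difference of 0.72 ± 0.18 (unadjusted p = 0.00134) was 0.67 without the arrays numbered 3. Egr1 read 345, 415 and 490.5 without peptide and 494, 370 and 806 with it, so its groups overlapped (0.36 ± 0.38). Nab1 and Nr4a2 gave 0.32 and 0.15, and Egr3 and Nr4a3 were not measured. The median over the list was 0.54, and 0.73, 0.35 and 0.78 in the pairs numbered 1, 2 and 3. In B6g7 it was 0.56.

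The promoter of Nr4a1 is shown because it holds a match to the site of the EGR factors of the same list, while that of Egr2, which has CArG box matches, is not shown. The sequence is the 250 bases before its RefSeq start in build GRCm38.p6, at chr15:101266596-101266845 on the plus strand. Capitals mark a match to the EGR site GCGNGGGCG on either strand, whose first base lies 60 bases before the start.
Nr4a1: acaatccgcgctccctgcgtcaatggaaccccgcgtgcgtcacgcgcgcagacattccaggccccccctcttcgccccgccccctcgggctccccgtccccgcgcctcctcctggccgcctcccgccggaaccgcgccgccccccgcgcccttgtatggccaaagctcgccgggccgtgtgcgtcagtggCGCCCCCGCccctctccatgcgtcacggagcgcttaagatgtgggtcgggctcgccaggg
This motif was found before the start of 5.33% of 27025 genes in the table. Among 11 of the 12 genes with the largest positive differences that have a promoter there, 1 held it. A match is a run of letters, and binding was not measured.

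**Figure D1:**
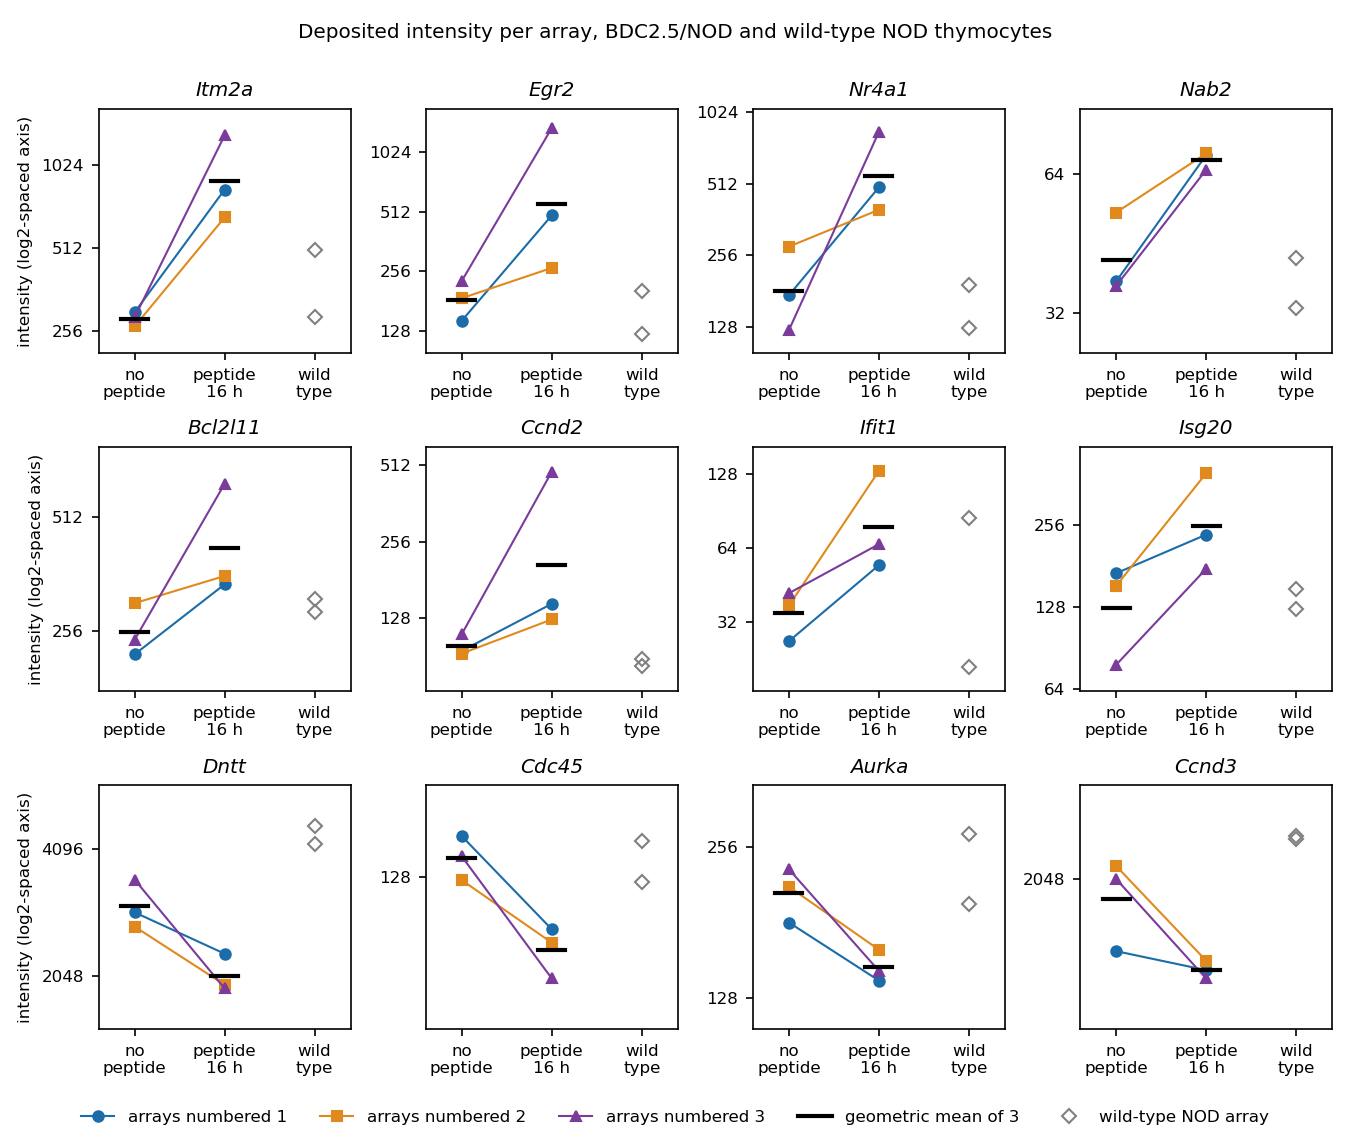
Deposited intensity of 12 genes on each BDC2.5/NOD array without and with 16 h of peptide, on log2-spaced axes, with lines joining same-numbered arrays, black bars at the geometric mean of 3 arrays and open diamonds for the 2 wild-type NOD arrays. Itm2a, Egr2 and Nr4a1 lay higher on each peptide array than on any array without peptide, and Dntt, Cdc45, Aurka and Ccnd3 lay lower.

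Other immediate-early genes differed less. Of 25 measured genes of AP-1 and the early response, 18 had a higher mean with peptide (72.0%, against 42.4% of all genes). Higher in 3 of 3 pairs were 7 and lower none, against 10.8% and 18.0% of all genes. The list median was 0.08. Fos, an AP-1 subunit, read 32.1, 50.3 and 68.2 without peptide and 76.4, 76.9 and 175 with it. The groups did not overlap (1.08 ± 0.45, unadjusted p = 0.0318), but another, dimmer Fos probe set gave 0.01. Gadd45b, a stress and NF-kB target, gave 0.45 by its brightest probe set and 1.05 ± 0.33 by a dimmer one. The dimmer one read 22.6, 30.7 and 16.4 without peptide and 47.8, 48.1 and 44.3 with it. In B6g7 the brightest gave 0.89 and the dimmer one 2.63 (limma, adjusted p = 0.0243), the 1 probe set called there. The dimmer one had a difference between strains of -1.58 ± 0.47 (unadjusted p = 0.00500, adjusted p = 0.9996). Junb gave 0.10, Ier2 0.42, Myc 0.38 and Irf4 0.28. In B6g7 these genes gave 0.18, 0.85, 0.80 and 1.03, with a difference between strains for Irf4 of -0.74 ± 0.30 (unadjusted p = 0.0263). Myc (13.7 to 26.2) and Irf4 (37.3 to 53.2) lay below the array medians on all BDC2.5/NOD arrays.

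Genes that restrain or relay the TCR signal had no common direction. Of 23 measured feedback and calcium regulators, 12 had a higher mean (52.2%, against 42.4% of all genes). In 3 of 3 pairs 6 were higher and 6 lower (26.1% each, against 10.8% and 18.0%). Nfatc1, a calcium-driven transcription factor, read 52.9, 64.2 and 76.9 without peptide and 80.4, 79.9 and 197 with it. Only the array numbered 3 stood far above the others (0.76 ± 0.41, 0.46 without arrays numbered 3). Cd5, a surface inhibitor of the TCR that tracks its signal strength, read 1526, 1335 and 454 without peptide and 1876, 1879 and 1480 with it. It was higher in 3 of 3 pairs, the groups overlapped, and its difference of 0.83 ± 0.47 was 0.40 without the arrays numbered 3. Ppp3ca, the calcineurin catalytic subunit, gave 0.54 ± 0.20. Of 20 genes of the proximal TCR machinery 13 had a higher mean (65.0%, against 42.4% of all genes). Without overlap 0 lay higher and 1 lower, against 2.27% and 3.25% of all genes.

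Among 32 activation receptors and cytokines, 21 had a higher mean (65.6%, against 42.4% of all genes). Higher in 3 of 3 pairs were 11 and lower 4 (34.4% and 12.5%, against 10.8% and 18.0%). Pdcd1 (PD-1), an inhibitory receptor, read 75.4, 63.8 and 63.6 without peptide and 103, 95.6 and 133 with it. Its groups did not overlap (0.70 ± 0.38), and in B6g7 it gave 1.80, a difference between strains of -1.10 ± 0.54 (unadjusted p = 0.0595). Tnfsf11 (RANKL), a TNF family ligand, gave 0.73 ± 0.35 and 0.25 without the arrays numbered 3. It was dim, at 16.2 to 17.5 without peptide and 18.1 to 56.25 with it. Ifng, the gene of interferon gamma, lay between 9.69 and 11.2 on all 6 arrays, far below the array medians. In the NF-kB pathway 9 of 17 genes had a higher mean (52.9%, against 42.4% of all genes). Nfkb2 read 84.0, 67.5 and 59.3 without peptide and 92.8, 99.0 and 102 with it (0.49 ± 0.24). Relb, its partner in the alternative pathway, gave 0.41 ± 0.24, and a dimmer Relb probe set gave 0.05 with overlap.

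Death and survival genes split gene by gene. Bcl2l11 (Bim), the BH3-only death gene of negative selection, read 223, 304 and 244 without peptide and 340.4, 358 and 625 with it. The groups did not overlap and array 3 was highest (0.74 ± 0.26, unadjusted p = 0.0125, 0.42 without the arrays numbered 3). Its dimmer probe sets gave -0.02 and 0.30. Of the 23 measured pro-apoptotic genes, 10 had a higher mean (43.5%, against 42.4% of all genes). The median was -0.03, so Bcl2l11 was not typical of its list.

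The survival gene Bcl2 gave different values by probe set. Its brightest read 215, 180 and 162 without peptide and 181, 155 and 173 with it (-0.12 ± 0.18). A dimmer one, chosen after its values were seen, read 121, 132 and 87.9 without peptide and 243, 221 and 304 with it (1.18 ± 0.21, adjusted p = 0.641), which was the smallest unadjusted p of this comparison at 7.28e-05. The third gave 0.45 ± 0.21. Bcl2l1 (Bcl-xL) read 215, 209 and 217 without peptide and 174, 178 and 188 with it, with no overlap (-0.25 ± 0.14). Its dimmer probe set gave -0.02 with overlap. Of 15 anti-apoptotic genes, none was higher in 3 of 3 pairs and 5 were lower (33.3%), with a median of -0.02. Over all genes 10.8% were higher in 3 of 3 and 18.0% lower.

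Genes of selection and maturation had a higher mean in 17 of 23 cases (73.9%), and 5 lay higher without overlap. Over all genes 42.4% had a higher mean and 2.27% lay higher without overlap. Il7r, the interleukin 7 receptor that maturing thymocytes regain, read 21.7, 19.7 and 26.1 without peptide and 28.6, 27.8 and 66.0 with it (0.75 ± 0.29, 0.34 without the peptide array numbered 3). Gata3, a CD4-lineage factor, gave 0.56 ± 0.27 (0.26 without that array) and Id2, an inhibitor of E proteins, 0.53 ± 0.22. Gimap4, a GTPase gene of T cell maturation, gave 0.58 ± 0.30, with -0.12 in B6g7. Ccr7, the receptor that leads cells to the medulla, was dim and gave 0.05. The list median was 0.08, and 0.49, 0.03 and 0.04 in the pairs numbered 1, 2 and 3. Without the arrays numbered 3 it was 0.23.

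Double-positive genes were lower. Of 20 measured, 15 had a lower mean with peptide, against 4755 of all 8251 genes. In 3 of 3 pairs 8 of the 20 were lower and 2 higher, against 18.0% and 10.8% of all genes. The list median was -0.27 (-0.29 in B6g7). Dntt, the terminal transferase that adds bases at receptor gene joints, read 2896, 2680 and 3459 without peptide and 2313, 1954 and 1916 with it. The groups did not overlap (-0.54 ± 0.27), and its other probe sets gave -0.70 and -1.02. Ptcra, the pre-TCR alpha chain, gave -0.36 ± 0.22 without overlap, and both wild-type arrays, at 400.3 and 319, were above all 6. The recombinase genes did not separate: Rag1 read 801, 1217 and 3337 without peptide and 784, 832 and 2147 with it (-0.41 ± 0.59), and leaving out the array without peptide numbered 3 turned the sign to 0.18. In these bulk samples fewer cells of a type and less RNA per cell cannot be told apart.

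Cd8a gave -0.36 ± 0.35 and Cd4 -0.14 ± 0.18, both with overlap. The pair medians of the list were -0.04, -0.26 and -0.48, so the pair numbered 1 had almost no difference, and without the arrays numbered 3 the median was -0.11. Lef1 and Bcl6 were exceptions in the list, with 0.52 ± 0.61 and 0.33 ± 0.35.

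Genes of DNA replication were lower as a list. Of 37 measured, 31 had a lower mean, against 4755 of all 8251 genes. In 3 of 3 pairs 17 were lower (45.9%) and 1 higher (Ung, a uracil repair enzyme), against 18.0% and 10.8% of all genes. Lower without overlap were 5, against 3.25% of all genes. Cdc45, a part of the replicative helicase, read 153, 126 and 140 without peptide and 102, 95.9 and 82.0 with it. All peptide arrays lay below all others (-0.58 ± 0.21, unadjusted p = 0.0138). Mcm7, a helicase subunit, read 329, 397 and 424 without peptide and 246, 296 and 260.3 with it (-0.52 ± 0.22). Mcm5 gave -0.41 ± 0.22 and the S phase factor E2f1 -0.32 ± 0.19, while Pcna, the sliding clamp, gave 0.05 ± 0.26. A dimmer Mcm5 probe set gave -0.08 with overlap. The list median was -0.23 (-0.08, -0.21 and -0.36 by pair, -0.15 in B6g7, and -0.13 without the arrays numbered 3).

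Mitotic genes were lower too, with 32 of 36 at a lower mean, against 4755 of all 8251 genes. Among the 36, 16 were lower in 3 of 3 pairs (44.4%) and 3 without overlap, against 18.0% and 3.25% of all genes. Aurka, a spindle kinase, read 181, 213 and 231 without peptide and 139, 160 and 145 with it (-0.49 ± 0.18). Its groups did not overlap. Mki67, the proliferation marker Ki-67, read 1114, 866 and 789 without peptide and 672, 744 and 697 with it (-0.38 ± 0.27), while in B6g7 it gave 0.00. The median was -0.22, and -0.11, -0.22 and -0.30 by pair.

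The D cyclins went opposite ways. Ccnd2 read 95.5, 93.2 and 111 without peptide and 146, 127 and 480.5 with it. Its groups did not overlap, but the peptide array numbered 3 stood far above the rest, and the difference of 1.06 ± 0.64 was 0.53 without the arrays numbered 3. Ccnd3, the main D cyclin of double-positive cells, read 1495, 2170 and 2050 without peptide and 1376, 1434 and 1327 with it (-0.45 ± 0.24), again with no overlap. In B6g7 the 2 genes gave 1.58 and -1.09.

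**Figure D2:**
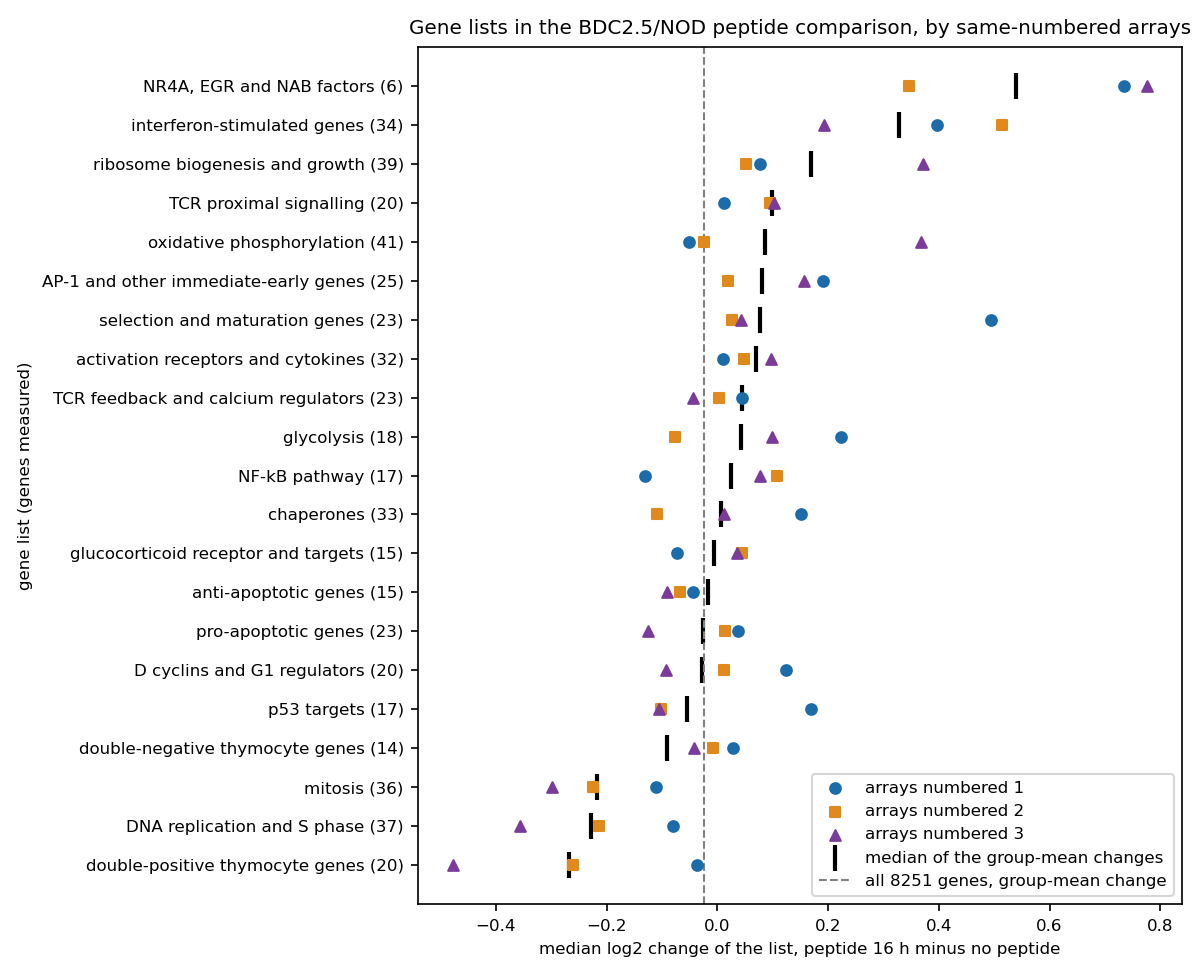
Median log2 change of 21 gene lists, peptide at 16 h minus no peptide, for each same-numbered pair of BDC2.5/NOD arrays (coloured symbols) and for the group means (black ticks), with the median of all 8251 genes as a dashed line. Above the line in 3 of 3 pairs lay the NR4A, EGR and NAB, interferon-stimulated, AP-1, TCR proximal, activation, selection and ribosome biogenesis lists. Below it in 3 of 3 lay the S phase, mitosis, double-positive and anti-apoptotic lists. In the pair numbered 1 alone, however, the median of all genes was -0.055. The double-positive (-0.038) and anti-apoptotic (-0.044) lists lay above that value.

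Interferon-stimulated genes were higher with peptide as a list. Of 34 measured, 32 had a higher mean (94.1%), 21 were higher in 3 of 3 pairs and none lower, and 12 did not overlap, against 42.4%, 10.8%, 18.0% and 2.27% of all genes. The median was 0.33, and 0.40, 0.51 and 0.19 by pair. It was 0.40 without the arrays numbered 3 and 0.17 in B6g7, where 27 of 34 had a higher mean. None of the 34 had an unadjusted p under 0.05, and 4 did with pairs.

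Ifit1, an antiviral protein that binds foreign RNA, read 26.7, 37.3 and 41.9 without peptide and 54.4, 131 and 66.2 with it. The peptide array numbered 2 was highest and the groups did not overlap (1.17 ± 0.80, -0.43 in B6g7). Isg20, an exonuclease, read 170.0, 153 and 78.4 without peptide and 236, 396 and 176 with it (1.005 ± 0.48). Array 2 was again the highest, and the lowest peptide array was just above the highest array without peptide. Of the interferon-induced GTPases, Gbp3 read 33.9, 24.8 and 48.2 without peptide and 55.9, 50.8 and 96.7 with it (0.92 ± 0.72).

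Other interferon-induced GTPases were higher too. Irgm2, which is not in the list, read 84.0, 136 and 156 without peptide and 227, 208 and 237 with it (0.88 ± 0.55, -0.07 in B6g7). Of the list, Igtp gave 0.73 ± 0.63 and Gbp2 0.77 ± 0.82, both without overlap, as in Irgm2. Ifih1 (MDA5), a sensor of viral RNA, gave 0.84 ± 0.61, and Isg15, a ubiquitin-like modifier, 0.69 ± 0.62. Rsad2 and Cxcl9 stood outside the pattern, at -0.05 and -0.02. Interferon-induced families share sequence, so probe sets of Ifit, Gbp and Irgm genes may also read relatives.

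The standard errors of these genes were wide, and so was their spread between the wild-type arrays. Mean log2 intensity of the list was 6.20, 6.23 and 6.32 on the arrays without peptide and 6.58, 6.79 and 6.60 with it, which did not overlap. The 2 wild-type NOD arrays, however, read 6.09 and 6.82, below and above all 6 BDC2.5/NOD arrays. In a gene such as Usp18, a brake on interferon signalling, wild-type arrays read 85.6 and 371 against 98.7 to 246 on the 6. A span wider than the peptide difference therefore existed between 2 arrays of the same label, and what set it was not tested.

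The promoters of Ifit1, Gbp3 and Irgm2 are shown because these interferon-induced genes among the 12 largest positive differences hold the element described here. Isg20, the other such gene, held no match in its 3 windows and is not shown. They are the 250 bases before the RefSeq start in build GRCm38.p6, at chr19:34640639-34640888, chr3:142559794-142560043 and chr11:58214727-58214976, all on the plus strand, with the first of 2 windows for Gbp3. Capitals mark matches to the core of the interferon-stimulated response element, read as GAAA, any 2 bases and GAAA on either strand, of which 2 overlap in Gbp3.
Ifit1: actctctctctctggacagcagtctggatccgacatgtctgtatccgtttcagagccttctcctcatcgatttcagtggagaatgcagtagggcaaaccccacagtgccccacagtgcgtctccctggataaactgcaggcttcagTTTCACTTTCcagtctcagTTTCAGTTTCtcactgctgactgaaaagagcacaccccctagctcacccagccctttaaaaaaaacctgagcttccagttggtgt
Gbp3: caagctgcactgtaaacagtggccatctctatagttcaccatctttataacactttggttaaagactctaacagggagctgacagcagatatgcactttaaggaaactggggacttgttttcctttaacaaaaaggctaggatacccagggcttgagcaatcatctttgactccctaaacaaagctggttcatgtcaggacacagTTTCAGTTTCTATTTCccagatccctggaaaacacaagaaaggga
Irgm2: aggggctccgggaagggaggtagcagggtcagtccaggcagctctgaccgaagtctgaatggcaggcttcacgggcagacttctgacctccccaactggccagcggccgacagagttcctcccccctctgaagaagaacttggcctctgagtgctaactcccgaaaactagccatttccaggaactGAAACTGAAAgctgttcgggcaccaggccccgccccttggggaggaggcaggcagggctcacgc
The core was found in 11 of 28 interferon-stimulated genes of the list with a promoter in the table (39.3%) and in 3.46% of 27025 genes. In Ifit1 the 2 matches begin 104 and 85 bases before the start, in Gbp3 45 and 39, and in Irgm2 64. Among the 12 genes with the largest positive differences it was found in 4 of 11 with a promoter (36.4%). The fourth was Srgn, 220 bases before the start and not in its other window. Among the 12 with the largest negative differences the core was found in 0 of 11. Apart from Srgn the matches are the interferon-induced genes shown, so the 36.4% follows from which genes were chosen and is no test. A match does not show which factor bound.

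**Figure D3:**
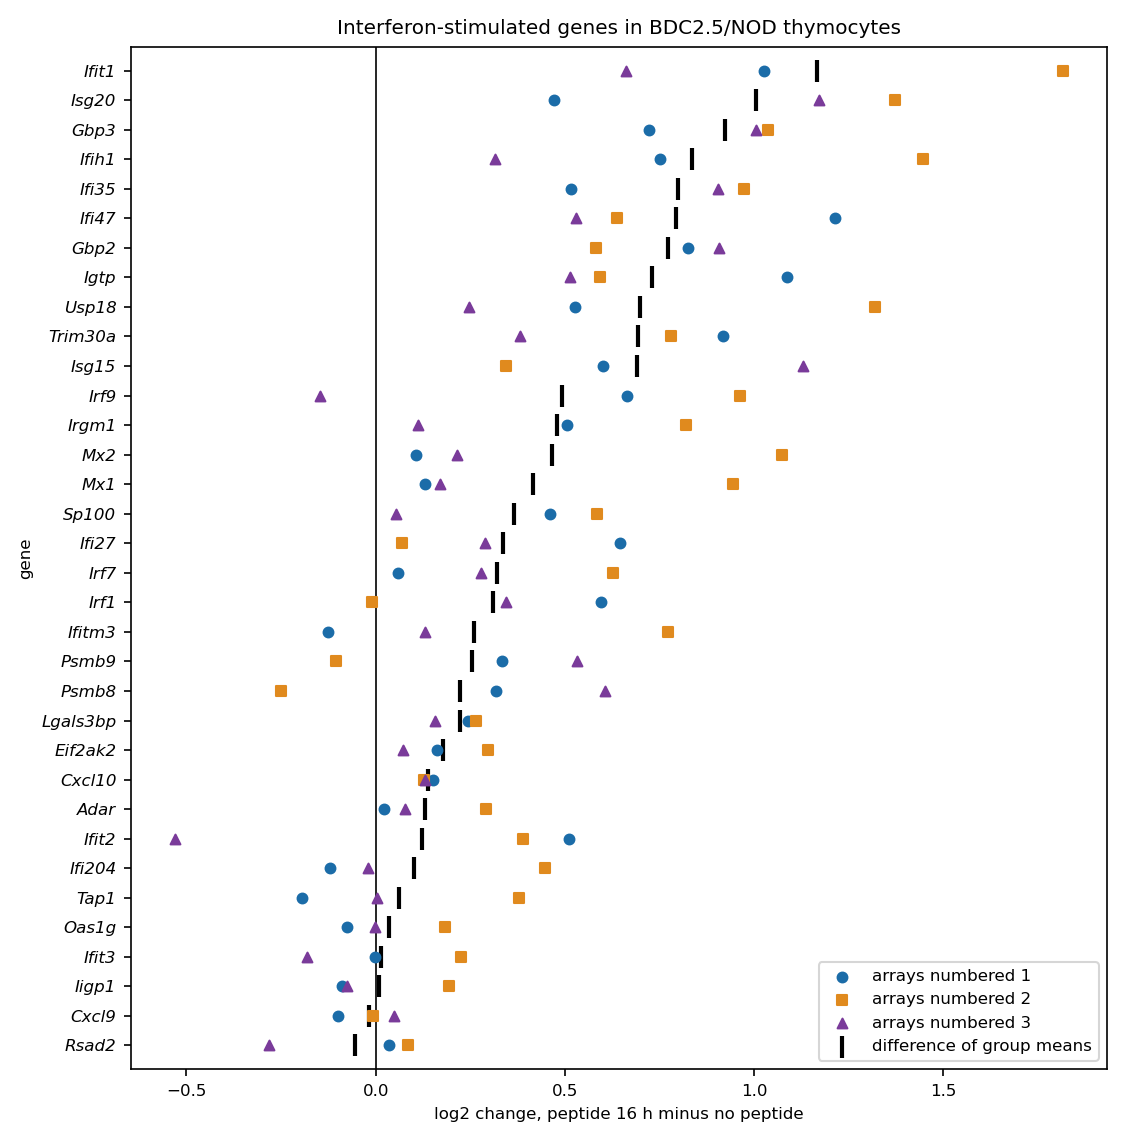
Log2 change of 34 interferon-stimulated genes, peptide at 16 h minus no peptide, in each same-numbered pair of BDC2.5/NOD arrays (coloured symbols) and between group means (black ticks). 32 of the 34 means lay above 0, from 1.17 for Ifit1 down to -0.05 for Rsad2, and the pair numbered 2 had the highest list median at 0.51.

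Growth genes had a higher mean, with the highest pair median in the pair numbered 3. Of 39 genes of ribosome biogenesis and growth, 34 had a higher mean (87.2%, against 42.4% of all genes). Higher in 3 of 3 pairs were 16 (41.0%, against 10.8%). The median was 0.17 (0.08, 0.05 and 0.37 by pair). Without the arrays numbered 3 it was 0.06, and in B6g7 0.44. Mettl1, a tRNA methyltransferase, read 38.0, 39.4 and 38.9 without peptide and 48.2, 47.8 and 48.4 with it, a small difference with little spread (0.31 ± 0.12). Pprc1, a coactivator of mitochondrial biogenesis, gave 0.29 ± 0.10 against 0.62 in B6g7, a difference between strains of -0.33 ± 0.15 (unadjusted p = 0.0398). Both genes lay below the array medians on all BDC2.5/NOD arrays, with Pprc1 at only 14.8 to 20.2.

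Genes of oxidative phosphorylation had a higher mean in 30 of 41 cases (73.2%, against 42.4% of all genes). The pair medians, however, were -0.05, -0.02 and 0.37, and without the arrays numbered 3 only 18 were higher (median -0.01). None of the 41 was without overlap. Chaperones gave a median of 0.01, glycolysis 0.04, p53 targets -0.06, glucocorticoid targets -0.01, genes of double-negative cells -0.09 and G1 regulators -0.03, against -0.02 over all genes. Of the glucocorticoid list, Per1, a clock gene, gave 0.50 ± 0.22 without overlap, and 0.27 without the array without peptide numbered 3.

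**Figure D4:**
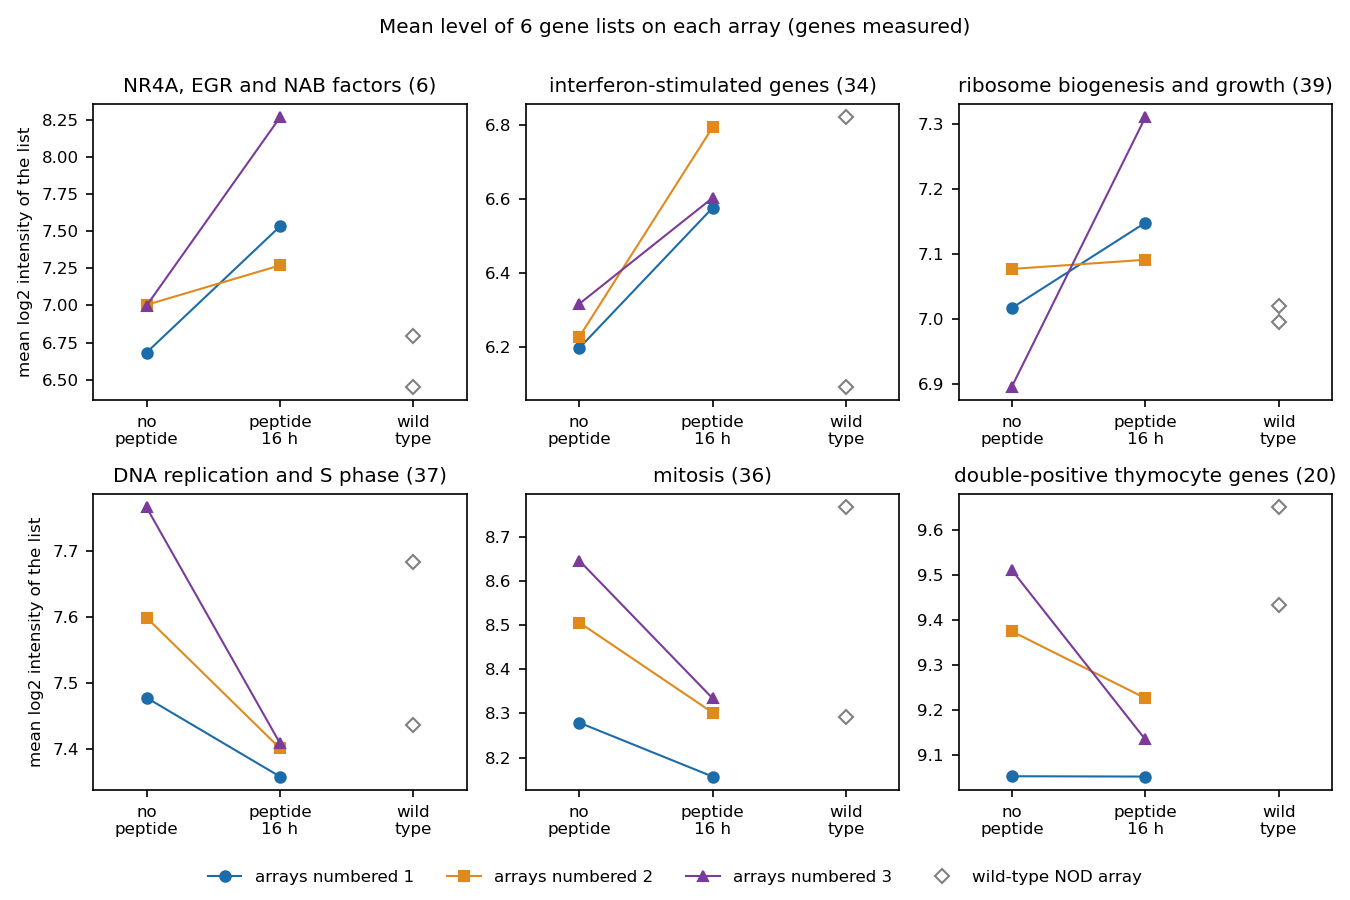
Mean log2 intensity of 6 gene lists on each BDC2.5/NOD array without and with 16 h of peptide (lines join same-numbered arrays) and on the 2 wild-type NOD arrays (open diamonds). The interferon-stimulated list spanned 6.20 to 6.32 without and 6.58 to 6.79 with peptide, and its wild-type arrays read 6.09 and 6.82, while the double-positive list of the arrays numbered 1 was 9.05 in both states.

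The 12 largest positive differences, taken among genes at or above an intensity of 57.4 in a BDC2.5/NOD group and without overlap, were Itm2a, Egr2, Nr4a1, Ifit1, Retreg1, Fos, Ccnd2, Srgn, Isg20, Itih5, Gbp3 and Irgm2. The last was 0.88 and the next gene outside, Ephx1, 0.87. Retreg1, a receptor for turnover of the endoplasmic reticulum, read 130, 210.2 and 241 without peptide and 336, 281 and 760 with it (1.15 ± 0.48, 0.71 without the peptide array numbered 3). Srgn, the granule proteoglycan serglycin, gave 1.02 ± 0.33 and Itih5, of a family that binds hyaluronan, 0.96 ± 0.24, which was 0.55 without the arrays numbered 3. A dimmer Itih5 probe set gave -0.02 with overlap.

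The 12 largest negative differences were smaller in size, from -0.62 to -0.49, with Nde1 next outside at -0.48. They were Nrp1, Ilvbl, Cdc45, H2-T18, P2rx1, Dntt, Spdl1, Edem1, Mcm7, Ctsd, Aurka and Ets2. Nrp1, a receptor for semaphorins and VEGF, read 386, 433 and 329 without peptide and 237, 322 and 200 with it, and 958 and 598 on the wild-type arrays, which lay above all 6. Another, dimmer Nrp1 probe set overlapped between the groups (-0.23 ± 0.42) and was higher with peptide in the pair numbered 1, and another of Ilvbl overlapped too (-0.21 ± 0.25). H2-T18, a nonclassical MHC class I gene with near-identical relatives that its probe set may also read, went from 1410, 1503 and 1708 to 1080, 1319 and 762 (-0.58 ± 0.27, -0.29 without the arrays numbered 3), with wild-type values of 4184 and 3898. P2rx1, an ATP-gated channel, gave -0.55 ± 0.30, the spindle gene Spdl1 -0.54 ± 0.23, and Ctsd, the lysosomal protease cathepsin D, -0.49 ± 0.18.

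The pairs differed in the size of the response. Over the 12 positive genes the pair medians were 1.27, 0.61 and 1.51, and over the 12 negative genes -0.43, -0.42 and -0.72, values that describe genes chosen on these arrays. The pair numbered 3 gave the largest difference in 8 of 12 positive and 10 of 12 negative genes. Among all 121 higher genes without overlap at that intensity it did so in 59, and among all 4901 genes in 1872, against 2243 for the pair numbered 1. Over all probe sets, 127, 16 and 110 differed by over 2-fold in the pairs numbered 1, 2 and 3. The correlation of pair differences over 12422 probe sets (probe sets are no replicates) was 0.03 between pairs 1 and 2, 0.06 between 1 and 3, and 0.13 between 2 and 3.

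BDC2.5/B6g7 arrays, which share no array with those of NOD, had the same sign in most of the chosen genes. Of the 12 positive genes 10 had a higher mean with peptide in B6g7, Ifit1 and Irgm2 being the exceptions, and of the 12 negative genes 12 had a lower mean. For Egr2 the log2 difference was 1.60 in NOD and 0.64 in B6g7, a difference of 0.97 ± 0.69 (unadjusted p = 0.186), and for Nr4a1 1.60 and 2.14 (-0.54 ± 0.50, unadjusted p = 0.295). Ctsd gave -0.49 in NOD and -0.01 in B6g7 (-0.48 ± 0.25, unadjusted p = 0.0719). Each of these missed the threshold after adjustment, so no gene was shown to differ between the strains, and the test does not show that the strains respond alike.

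Among all 121 genes over the same intensity whose NOD peptide arrays were all higher, 87 (71.9%) had a higher mean with peptide in B6g7, against 50.8% of 4901 genes at that intensity. Among the 134 whose NOD peptide arrays were all lower, 85 (63.4%) had a lower mean in B6g7, against 49.2%. Their median difference in B6g7 was 0.14 and -0.03, against 0.43 and -0.25 in NOD, where the genes had been chosen.

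**Figure D5:**
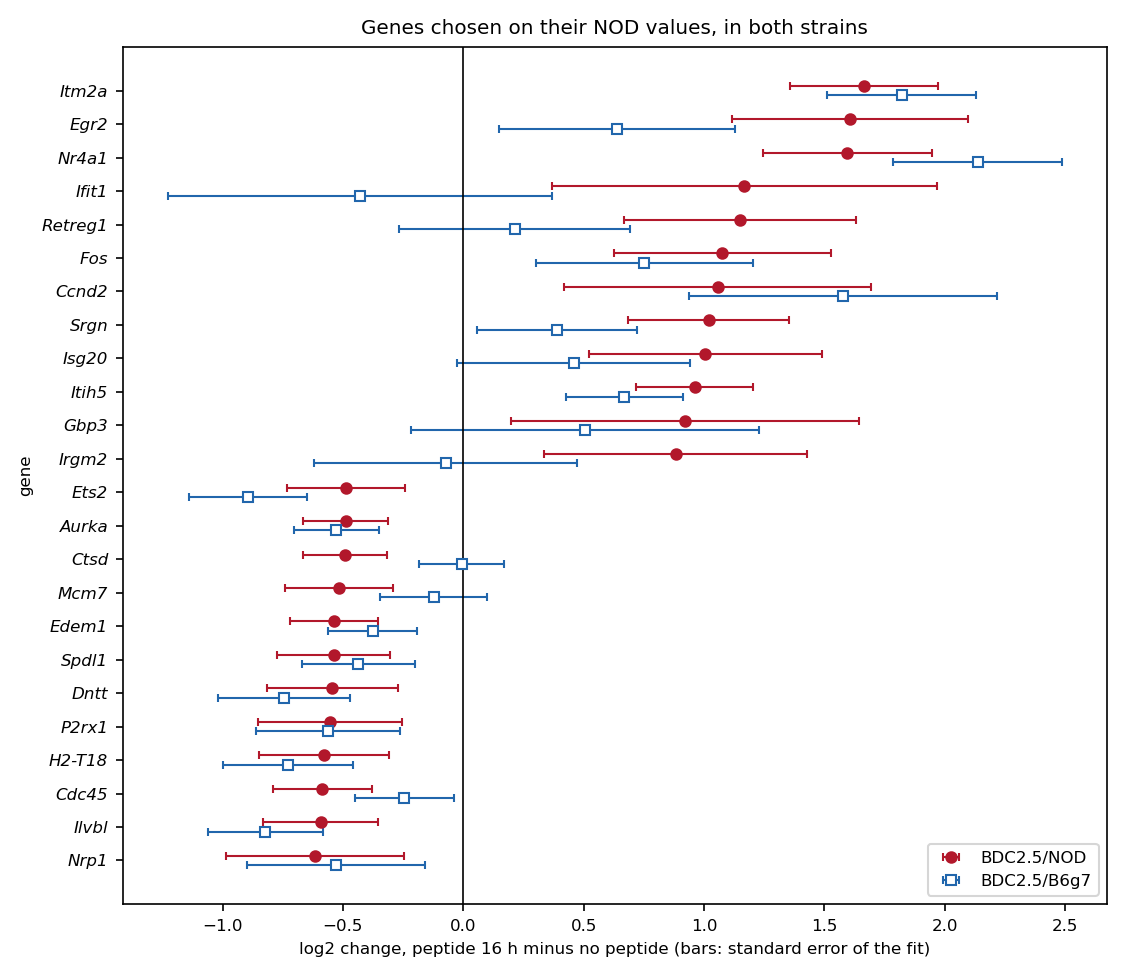
Log2 change, peptide at 16 h minus no peptide, of the 24 genes chosen on their BDC2.5/NOD values, in BDC2.5/NOD (filled circles) and BDC2.5/B6g7 (open squares), with standard errors of the fit. In B6g7, 10 of the 12 positive genes lay above 0 and 12 of the 12 negative genes below it, and the B6g7 bars of 7 genes cross 0 (Ifit1, Irgm2, Retreg1, Isg20, Gbp3, Mcm7 and Ctsd).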

How the data were processed

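Total RNA of 16 thymocyte cultures had been hybridised to Affymetrix mouse arrays. The authors deposited linear intensities, 1 for each probe set on each array. Background correction, scaling and probe set summary are not given in the sources used here. Of 12488 probe sets, 66 controls were left out and 12422 tested. In the platform annotation 10833 named 1 gene, 396 several and 1193 none, giving 8251 genes, each read by its brightest probe set. The deposited table has no detection values, and the number of arrays limits the precision.

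Deposited intensities were taken to log2 with no pseudocount and compared by linear models (limma 3.58.1, run under R 4.3.3) whose variances were moderated with a trend on intensity (two-sided tests, Benjamini-Hochberg within a comparison, 10 residual and 3.60 prior degrees of freedom). All 16 arrays entered, with 1 mean per group. Values after ± are standard errors of that fit.

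Deviations from group means correlated at 0.608, 0.581 and 0.793 between same-numbered NOD arrays, so these were also read as pairs; differently numbered arrays gave -0.643 to 0.389. The pairing comes from the titles, which do not say what a number marks.

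Named genes were the 12 largest differences each way among genes at or above the median intensity without overlap of the groups, up to 4 members per list with the smallest unadjusted p, and a list of fixed genes. The named members Nr4a2, Nab1, Cd3g, Ifng, Gimap4, Lef1, Bcl6, Pcna, Ung, Mki67, Isg15, Usp18, Igtp, Gbp2, Ifih1, Rsad2, Cxcl9, Lmo2 and Plk2, and the further probe sets, were picked after their values were seen where that rule did not name them. Members, lists and genes were chosen with earlier results of these data known, so lists are described by counts and medians, with no test. Promoters came from RefSeq (GRCm38.p6), searched for 6 motifs on both strands in the 250 bases before the start: TGACGTCA, TGANTCA, GCGNGGGCG, TTTNNCGC, the interferon-stimulated response element core and the CArG box. The fit was also run on simulated data with independent noise on each array. Those data lack the correlation between same-numbered arrays, so that run does not show how the fit behaves under it.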

Additional observations from a re-analysis of the deposited data

Results flagged for a closer look

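For 2 named genes, every BDC2.5/NOD pair moved one way with peptide and every BDC2.5/B6g7 pair the other. Lmo2, a factor of early T cell progenitors, was lower in 3 of 3 NOD pairs and higher in the B6g7 pairs, with 1 NOD pair at -0.0093, a NOD minus B6g7 difference of the log2 changes of -0.26 (limma, unadjusted p = 0.105). A dimmer Lmo2 probe set did not show this, with NOD pairs at -0.23, -0.01 and 0.14. Plk2, a kinase and p53 target, did the same with a difference of -0.47 (unadjusted p = 0.0503). Of all 8251 genes, 168 (2.04%) were lower in 3 of 3 NOD pairs and higher in 3 of 3 B6g7 pairs. Neither difference passed after adjustment, when the smallest adjusted p over all probe sets was 0.9996.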

How the results depend on the processing

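The number of probe sets called between BDC2.5/NOD arrays with and without peptide was 0 under all 14 alternatives run, with a smallest adjusted p of 0.164 to 1. With the replicate block, which reads same-numbered arrays as pairs, it was 0 and changed no call of a named gene. Of 111 named genes 105 kept their sign under each alternative and 0 were called. Part of this was fixed in advance, since genes without overlap of the groups cannot turn when arrays are left out. The block within strains, the fit without the intensity trend and the fit on the 6 NOD arrays leave each difference unchanged. The sign of 6 turned when 1 array was left out: Slc2a3 (-0.0552 to 0.35), Tnfrsf9 (-0.0936 to 0.0495), Rag1 (-0.88 to 0.18), Rag2 (-0.77 to 0.0158), Nfkbia (-0.10 to 0.36) and Fas (-0.049 to 0.14).

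In B6g7, 1 probe set was called, and 0 with the replicate block within or across strains, without the intensity trend or with the filter on low values, 2 with quantile normalization or a pseudocount of 16, and 3 without the arrays that stand apart. The actin measure turned to 0.0812 with Gapdh probe sets and ranged from -0.51 to 0.23 without 1 array.

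Of 308 list medians recomputed, 38 moved by over 1 SD of the pair medians. The filter on low values gave 0.98 for NR4A, EGR and NAB factors, 0.26 for activation receptors, 0.0293 for myeloid, 0.11 for NK and 0.0799 for mesenchymal markers. Without the arrays numbered 3 the medians were 0.0718 for pro-apoptotic, 0.0206 for anti-apoptotic and -0.0409 for double-negative genes and 0.0284 for mesenchymal markers, the last also 0.03 with quantile normalization, 0.0049 with the pseudocount and -0.011 averaged over the probe sets of a gene, which gave 0.0378 for TCR proximal genes. Leaving out 1 array gave 0.0845 to 0.18 for AP-1, -0.0431 to 0.0824 for TCR feedback, 0.0378 to 0.15 for TCR proximal, -0.15 to -0.006 for anti-apoptotic, -0.12 to 0.0076 for double-negative, -0.27 to -0.10 for mitotic, -0.12 to 0.14 for chaperone and -0.0755 to 0.029 for glucocorticoid genes. For markers it gave -0.37 to -0.0374 (T lineage), -0.10 to 0.0106 (myeloid), -0.0167 to 0.0588 (epithelial), -0.0414 to 0.051 (mesenchymal) and -0.0342 to 0.0635 (NK). The causes were not tested.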
